A study of Mus musculus with 8 samples.

Results

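The genes of the translation initiation and elongation factors, which load ribosomes onto messenger RNA and drive them along it, were examined in spleen cells of HMGA1a transgenic and wild-type mice. They were taken as every probe set annotated to a single symbol that begins with Eif1 to Eif6 or with Eef, without the X- and Y-linked genes Eif2s3x and Eif2s3y, and each gene was read from whichever of its probe sets had the highest mean log2 value over the 8 arrays. The rule gave 57 genes of the 18193 genes with a probe set of their own symbol. Of these, 55 were among the 11189 genes that passed a filter on dim probe sets. Eif4a3, a helicase of the exon junction complex, and Eef2kmt, a methyltransferase of elongation factor eEF2, lay below it, with signals of 1.67 to 8.21 and 7.31 to 18.8. The rule used no difference between groups, but it was set with earlier results of these data known.

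RNA came from splenocytes of 8 male C57/BL6 mice, with 1 Affymetrix Mouse 430 2.0 array per mouse. The 4 groups of 2 mice were wild type (WT) at 2 months, HMGA1a transgenic (TG) at 2 months, WT at 12 months and TG at 12 months, where WT mice were littermates without the transgene and the labels list no treatment. HMGA1a is a chromatin protein that binds AT-rich DNA, and all mice of this transgenic line are described as developing lymphoid tumours. The series' design places 2 months before tumour formation and 12 months after tumours were established. The promoter that drives the transgene is not given in the sources used here, and the level of the transgene was not analysed here. Each array gives a linear signal per probe set, scaled per array by MAS5, so a signal can be compared between arrays for 1 gene but not between genes. Differences are given on the scale of log2(signal + 16), with their standard error (SE) and n = 2 mice a group.

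Translation starts when eIF2 delivers the initiator tRNA to the small ribosomal subunit, which eIF3, eIF1 and eIF1A hold open for scanning. The eIF4 proteins bind the cap of the messenger RNA through eIF4E and unwind its leader, and eIF5, eIF5B and eIF6 act around the joining of the large subunit. After each round eIF2B recharges eIF2 with GTP, a step that kinases of the eIF2 alpha subunit block under stress, while the eIF4E-binding proteins sequester eIF4E until mTOR phosphorylates them. eEF1A then brings each aminoacyl-tRNA and eEF2 moves the ribosome along. In lymphocytes this machinery is known to expand when cells grow and divide, and eIF4E is a known oncoprotein of lymphoma.

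Markers of several cell types and of RNA quality differed between the genotypes at 12 months, though 0 of the marker genes passed the limma test without the replicate block. Both TG arrays lay above both WT arrays for 5 of 7 dividing cell markers (14.3% of all genes). They lay below for 6 of 6 macrophage and 3 of 7 B cell markers (19.9% of all genes). Of the T cell markers 2 lay above and 1 below, and of the 8 neutrophil markers 1 lay above. With the block 2 B cell markers were lower in TG, Cr2 and Fcer2a, each with a limma adjusted p of 0.0255. The 7 measured markers of dividing cells were all higher in TG than in WT, with a median log2 difference of 0.58 and summed signals of 10588 and 8310 against 7454 and 6750. The 7 B cell and 7 T cell markers on the array all passed the filter. All 7 B cell markers were lower in TG (median -0.405, summed signals 11290 and 20182 against 16447 and 23062), and so were all 6 macrophage markers (median -0.62, 9014 and 12173 against 16671 and 16086). The median of the 7 T cell markers was 1.46 within replicate 1 and -0.13 within replicate 2 (summed 7484 and 3208 in TG against 2663 and 3299). That of the 8 neutrophil markers was -0.081 and 1.85 (summed 9411 and 21249 against 10258 and 5829). The medians of the plasma cell, erythroid and pancreatic lists were -0.048, 0.10 and 0.44. The 3'/5' ratio of the Gapdh control probe sets, which rises as RNA is degraded, was 1.25 and 1.73 in WT against 0.843 and 1.21 in TG. In such bulk samples, fewer cells of a type and less RNA per cell cannot be told apart, and the part of these shifts in the values below was not tested. At 2 months, pancreatic enzyme genes summed to 12497 in WT replicate 1 and to 540 to 854 on the other 7 arrays, which sets that array apart.

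At 12 months the translation factor genes lay higher in TG than in WT spleen cells as a group, though no single gene passed the test. Of the 55 genes, 41 had a higher mean in TG and 14 a lower mean, and the median log2 difference was 0.19, a 1.14-fold difference, against -0.034 over all 11189 genes. The median was 0.205 between the replicate 1 mice and 0.176 between the replicate 2 mice, where all genes had -0.053 and -0.022. In 35 of the 55 genes (63.6%) TG was higher in both replicates, against 26.9% of all genes, and in 5 (9.09%) it was lower in both, against 35.5%. Both TG arrays lay above both WT arrays for 25 members, where 14.3% of all genes did so, and below them for 3, where 19.9% of all genes did so. The other 27 overlapped.

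**Figure D1:**
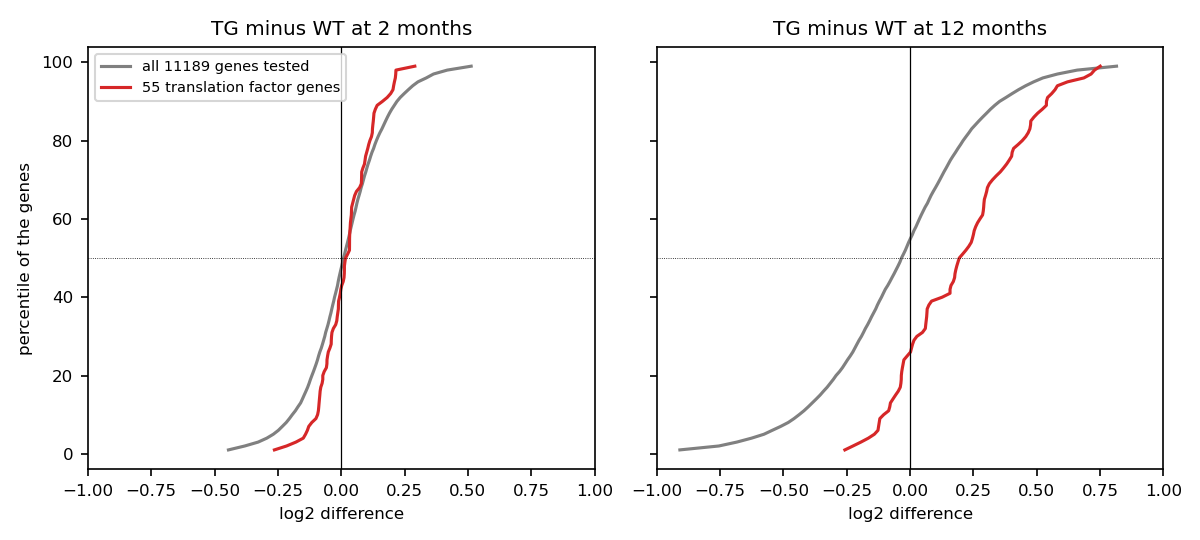
Percentile of the genes (y axis) against the TG minus WT log2 difference (x axis) at 2 months (left) and 12 months (right), for the 55 translation factor genes (red) and all 11189 genes tested (grey). The curves cross 50 near 0 at 2 months (medians 0.017 and 0.009), and at 12 months the red curve lies to the right of the grey one up to its highest percentiles (medians 0.194 and -0.034).

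With limma over all genes and Benjamini-Hochberg adjustment, 0 of the 55 had an adjusted p under 0.05 at 12 months, as did 0% of all genes, and the smallest adjusted p of a member was 0.586. At an unadjusted limma p under 0.05, 11 members were higher and 0 lower, where 2.59% of all genes were higher and 5.14% lower. These 11 were Eif2s2, Eif2b1, Eif2ak2, Eif3h, Eif3l, Eif3m, Eif4e, Eif4e2, Eif6, Eef1a2 and Eef1e1. With the replicate number as a block the limma counts were 21 higher and 0 lower, against 7.26% and 12.6% of all genes, and the smallest adjusted p of a member was 0.0666, for Eif4e. The median depended on 1 library: without the WT replicate 1 mouse of 12 months it was 0.13, with 38 of 55 members higher.

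**Figure D2:**
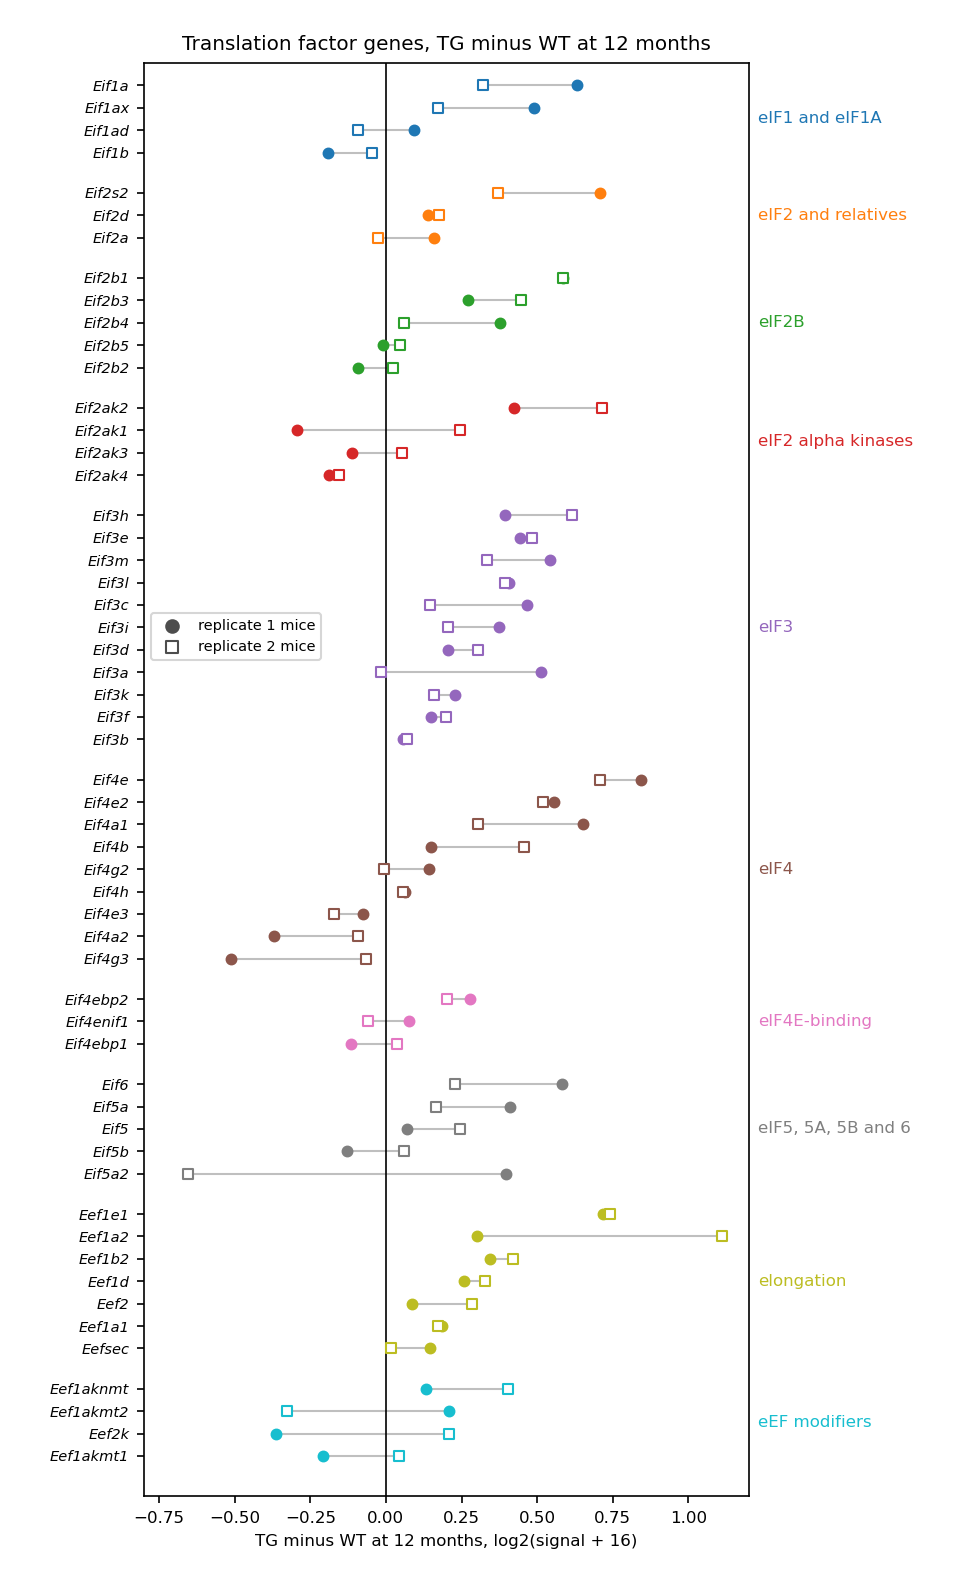
TG minus WT difference at 12 months on the log2(signal + 16) scale (x axis) for each of the 55 genes (y axis), between the replicate 1 mice (filled circles) and between the replicate 2 mice (open squares), ordered by role and, within a role, by the mean. All 11 eIF3 genes and all 7 elongation factor genes have a mean above 0, and the eIF4 genes spread from -0.29 to 0.78.

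The cap-binding and unwinding factors (eIF4) held both the highest and the lowest values at 12 months. Eif4e encodes the protein that grips the messenger RNA cap. Its signal was 691 and 578 in the 2-month WT mice, 675 and 664 in the 2-month TG mice, 611 and 556 in the 12-month WT mice and 1108 and 918 in the 12-month TG mice. Both 12-month TG arrays lay above every other array, and the other 6 arrays lay within 556 to 691. The log2 difference at 12 months was 0.78 ± 0.18 (SE, n = 2), a 1.71-fold difference, with 0.84 and 0.71 within the replicates and a limma adjusted p of 0.586 (0.0666 with the replicate block). A second Eif4e probe set above the filter gave 0.18 with overlapping groups, so the size rests on the brighter probe set.

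Eif4e2 encodes a cap-binding relative that represses rather than starts translation. It had signals of 546 and 534 in WT and 616 and 563 in TG at 2 months, then 500 and 402 in WT and 743 and 583 in TG at 12 months. TG lay above WT at both ages, by 0.12 ± 0.19 and 0.54 ± 0.19 (SE, n = 2). Its 5 probe sets above the filter ranged from -0.043 to 0.54 at 12 months. Eif4e3, the third cap-binding form, had 280 and 273 in WT against 265 and 241 in TG at 12 months. The difference of -0.12 ± 0.21 was smaller than its error, and a second probe set gave -0.057 with overlapping groups.

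The helicase eIF4A, which unwinds the leader, has 2 closely related forms that differed in direction. Eif4a1 had signals of 3300 and 1659 in WT and 5190 and 2050 in TG at 12 months. The replicate 1 signal was the higher in all 4 groups, the log2 value of replicate 2 minus replicate 1 being -1.33 to -0.99, and the TG minus WT difference was 0.48 ± 0.58 (SE, n = 2), smaller than its error. Within the replicates it was 0.65 and 0.30, and the 3 probe sets of Eif4a1 above the filter gave 0.25 to 0.72. That error holds the replicate difference: with the replicate block the SE was 0.117 and the limma adjusted p 0.113. Eif4a2 had 4373 and 3384 in WT against 3381 and 3177 in TG, with both TG arrays just below the lower WT array and a difference of -0.23 ± 0.25. At 2 months its signals were 4330 and 3379 in WT and 4129 and 2865 in TG, which overlapped.

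The scaffold eIF4G joins the cap-binding protein to the ribosome. Eif4g3, 1 of its forms, was the lowest member, with 1008 and 980 in WT and 702 and 935 in TG at 12 months and 853, 886, 1002 and 902 at 2 months (WT, then TG). The 12-month difference was -0.29 ± 0.19 (SE, n = 2), of which -0.51 came within replicate 1 and -0.067 within replicate 2. Its other probe sets above the filter gave -0.152 and -0.028 with overlapping groups. Eif4g2, a form that lacks the cap-binding contact, differed by 0.068 ± 0.33. Its other probe sets above the filter ranged from -0.213, lower without overlap, to 0.015 with overlap. The helicase cofactors Eif4b and Eif4h were 0.30 ± 0.17 and 0.059 ± 0.17 higher, both without overlap. Of the 9 eIF4 genes 6 were higher, with a median of 0.068, and this direction flipped with the scaling: 4 of 9 were higher after quantile normalization (median -0.039) and 4 of 9 after cyclic loess (median -0.020).

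**Figure D3:**
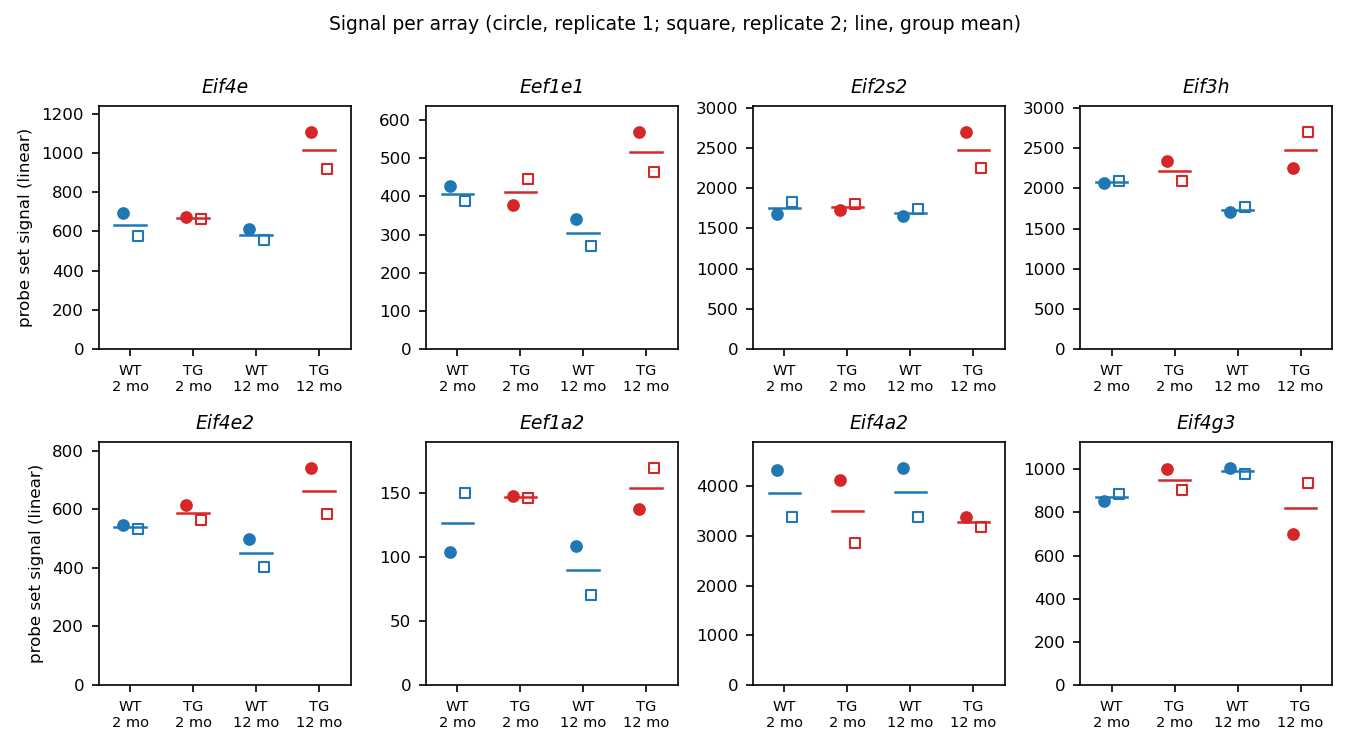
Linear signal (y axis, from 0) on each array for 8 members in the 4 groups (x axis), WT in blue and TG in red, replicate 1 as a filled circle, replicate 2 as an open square and the group mean as a line. For Eif4e, Eef1e1 and Eif2s2 both 12-month TG arrays lie above all 6 other arrays, and for Eif4a2 and Eif4g3 they lie below both 12-month WT arrays.

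Promoter sequence was available for 46 members, from RefSeq on GRCm38.p6, and was read for the E-box CACGTG, the palindromic site of MYC and related factors, because most members lay on the same side at 12 months. The 250 bases before an annotated start held it in 11 of the 46 (23.9%), against 887 of 9025 other genes tested (9.8%). Counted by start, 13 of 61 member starts held it (21.3%), against 6.02% of all 32851 starts of the reference. A gene can have several starts, and a match is a string of letters, not a bound site. The stretch of Eif4e is shown in full since Eif4e had the highest difference and holds 2 matches, 228 and 64 bases before the start, followed by shorter stretches of a helicase, 2 eIF3 subunits and eEF2 for comparison, each 5′ to 3′ on the strand of the gene with the E-box in capitals. They lie at chr3:138527018-138527267 (plus strand), chr11:69672582-69672637 (minus), chr7:108934322-108934377 (plus), chr7:28981902-28981957 (minus) and chr10:81176563-81176618 (plus), upstream of the transcript.
Eif4e: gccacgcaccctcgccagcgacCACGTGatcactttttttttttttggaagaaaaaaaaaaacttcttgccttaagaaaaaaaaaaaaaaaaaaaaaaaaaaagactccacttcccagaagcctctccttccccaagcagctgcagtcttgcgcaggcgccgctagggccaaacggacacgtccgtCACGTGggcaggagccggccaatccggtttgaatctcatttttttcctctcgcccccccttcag
Eif4a1: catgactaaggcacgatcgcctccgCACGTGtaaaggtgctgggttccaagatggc
Eif3f: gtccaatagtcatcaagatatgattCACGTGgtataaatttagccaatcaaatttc
Eif3k: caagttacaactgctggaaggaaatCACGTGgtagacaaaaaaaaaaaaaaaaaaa
Eef2: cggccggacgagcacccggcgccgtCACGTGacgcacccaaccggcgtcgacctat
The 11 members with the letters had a median TG minus WT log2 difference of 0.185 at 12 months (8 higher), and the 33 tested members without them had 0.178 (25 higher).

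Among the factors that bring the initiator tRNA, Eif2s2 encodes the beta subunit of eIF2. Its signal was 1684 and 1830 in WT and 1731 and 1806 in TG at 2 months, and 1651 and 1738 in WT and 2706 and 2252 in TG at 12 months. The 12-month TG arrays stood above all 6 others, which lay within 1651 to 1830. The log2 difference was 0.54 ± 0.17 (SE, n = 2), a 1.45-fold difference, with a limma adjusted p of 0.586 (0.109 with the replicate block). All 6 probe sets of Eif2s2 were higher, by 0.23 to 0.70. Eif2d, a factor that can place the tRNA without eIF2, was 0.16 ± 0.17 higher, and Eif2a, which despite its name is not the alpha subunit of eIF2, 0.066 ± 0.24. The other Eif2d probe sets above the filter ranged from -0.172, lower without overlap, to 0.260 with overlap.

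For start-codon selection, Eif1ax and Eif1a, which encode eIF1A, were 0.33 ± 0.20 and 0.48 ± 0.48 higher at 12 months (SE, n = 2), and both were higher within each replicate. With the replicate block the SE of Eif1a was 0.140 and its limma adjusted p 0.133. Eif1b, a paralog of eIF1, had 652 and 786 in WT and 569 and 761 in TG, a difference of -0.12 ± 0.21 with overlapping groups. The difference for Eif1ad was 0.002 ± 0.18, but a second, nearly as bright probe set gave 0.316 without overlap.

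The subunits of eIF2B, the exchange factor that reloads eIF2, had a median of 0.22 at 12 months, with 4 of 5 higher and 3 without overlap. Of all genes, 14.3% were higher in TG without overlap. Eif2b1, the alpha subunit, had 128 and 177 in WT and 200 and 274 in TG, and differed by 0.587 within replicate 1 and 0.585 within replicate 2. Eif2b3 and Eif2b4, the gamma and delta subunits, were 0.36 ± 0.27 and 0.22 ± 0.20 higher (SE, n = 2). Eif2b5, the catalytic epsilon subunit, had 285 and 265 in WT and 283 and 275 in TG, a difference of 0.019 ± 0.17, so the catalytic subunit lay within its error of 0. Eif2b2 differed by -0.034 ± 0.19, while its other probe sets above the filter gave 0.232 with overlap and 0.143 without.

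The 4 kinases that phosphorylate eIF2 alpha did not lie on the same side. Eif2ak2, the interferon-induced kinase PKR activated by double-stranded RNA, had 94.2 and 67.3 in WT and 132 and 121 in TG at 12 months, against 119, 118, 147 and 117 at 2 months (WT, then TG). The 12-month WT mice were thus the low group, and the TG mice were at the level of the young animals. Its 3 probe sets differed by 0.25 to 0.74, the brightest by 0.57 ± 0.22 (SE, n = 2). The 6 measured interferon-response genes had 2 higher and 4 lower in the same comparison, with a median of -0.068. Eif2ak1, the heme-regulated kinase, differed by -0.29 in replicate 1 and 0.24 in replicate 2. Its other probe sets above the filter ranged from -0.316 to 0.342. Eif2ak3, the kinase PERK of the endoplasmic reticulum, and Eif2ak4, the amino acid sensor GCN2, differed by -0.030 ± 0.20 and -0.17 ± 0.33. A dimmer Eif2ak4 probe set above the filter gave -0.719 without overlap.

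All 11 measured subunits of eIF3, the scaffold that joins the messenger RNA to the small ribosomal subunit, had a higher mean in TG at 12 months. Their log2 differences ran from 0.062 to 0.50 with a median of 0.29, a 1.22-fold difference, and the median was 0.39 within replicate 1 and 0.21 within replicate 2. Quantile normalization gave 0.21 and cyclic loess 0.22, again with 11 of 11 higher. Without the 12-month WT replicate 1 mouse the median was 0.11 with 9 of 11 higher, and without the TG replicate 2 mouse it was 0.27 with 9 of 11 higher. For 5 subunits (Eif3c, Eif3e, Eif3h, Eif3l and Eif3m) the groups did not overlap, and for the other 6 they did. Of all genes, 14.3% were higher in TG without overlap, and the subunits were read on the same arrays.

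Eif3h had 2067 and 2093 in WT and 2347 and 2096 in TG at 2 months, and 1708 and 1763 in WT and 2249 and 2708 in TG at 12 months. The 12-month WT arrays were the lowest pair, and 1 of the 12-month TG arrays lay within the range of the young mice and 1 above it. The difference at 12 months was 0.50 ± 0.18 (SE, n = 2; limma adjusted p 0.591). Eif3e, a subunit that contacts eIF4G, had 2909 and 3706 in WT and 3958 and 5189 in TG, a difference of 0.46 ± 0.22. The core scaffold subunits Eif3a and Eif3c were 0.25 ± 0.19 and 0.31 ± 0.17 higher. On the probe set used, Eif3a was higher within replicate 1 only (0.51 and -0.016). Its next brightest probe set gave 0.491 and 0.187 within the replicates. A dimmer one gave 0.510 and 0.450 without overlap, and the dimmest 1.123 and -0.496. Eif3b was the closest to 0 with 0.062 ± 0.19.

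The eIF4E-binding proteins, which hold eIF4E inactive, differed less. Eif4ebp2 had 908 and 949 in WT and 1104 and 1095 in TG at 12 months, without overlap, a difference of 0.24 ± 0.16 (SE, n = 2). Eif4ebp1 had 561 and 451 in WT and 517 and 463 in TG, and differed by -0.039 ± 0.18. Eif4enif1, which carries eIF4E into the nucleus, differed by 0.009 ± 0.18. The 0.78 of Eif4e and the -0.039 to 0.24 of its binding partners are each measured on their own probe sets, and the ratio of the proteins was not measured.

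For the factors of subunit joining, Eif6, which keeps the large subunit from rejoining too early, had 520 and 580 in WT and 786 and 682 in TG at 12 months, against 596, 538, 603 and 564 at 2 months (WT, then TG). Both TG arrays were above all other arrays, with a difference of 0.41 ± 0.17 (SE, n = 2). Eif5a, the hypusine-carrying factor that helps ribosomes past proline stretches, had 6629 and 8276 in WT against 8814 and 9279, a difference of 0.29 ± 0.22. Its paralog Eif5a2 went opposite ways in the replicates (0.40 and -0.65) at signals of 38.2 to 113. A second, dimmer Eif5a2 probe set gave 0.421 without overlap. Eif5, which triggers GTP hydrolysis on eIF2, and Eif5b, which joins the subunits, differed by 0.16 ± 0.21 and -0.035 ± 0.20. Another Eif5b probe set above the filter gave 0.341 with overlap, and those of Eif5 ranged from -0.123 to 0.228.

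All 7 elongation factor genes had a higher mean in TG at 12 months, with a median of 0.29 and a range of 0.080 to 0.73, and 7 of 7 remained on that side after quantile normalization (median 0.21) and cyclic loess (0.26). Without the 12-month WT replicate 1 mouse or the TG replicate 2 mouse, 4 of 7 were higher, with medians of 0.26 and 0.22. At 2 months 7 of 7 also had a higher mean in TG, by 0.013 to 0.208 with a median of 0.079, and the groups overlapped for each gene. Eef1e1, a scaffold of the multi-tRNA-synthetase complex, had 427 and 388 in WT and 377 and 447 in TG at 2 months, and 340 and 270 in WT and 570 and 463 in TG at 12 months. Its difference was 0.73 ± 0.20 (SE, n = 2), a 1.66-fold difference, with 0.72 and 0.74 within the replicates and a limma adjusted p of 0.586 (0.106 with the replicate block). The 12-month WT mice were the lowest pair and the 12-month TG mice the highest pair.

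Eef1a2 encodes the form of eEF1A that muscle and neurons use in place of Eef1a1. It had 104 and 150 in WT and 148 and 146 in TG at 2 months, and 109 and 70.2 in WT and 138 and 170 in TG at 12 months. The difference of 0.71 ± 0.26 (SE, n = 2) was uneven, 0.30 in replicate 1 and 1.11 in replicate 2. All 5 markers of muscle and neurons (Ckm, Acta1, Myh4, Tubb3 and Snap25) were below the filter, with summed signals of 72.4 to 222 on the 8 arrays.

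The genes of the 2 main elongation factors lay close to 0 relative to errors that hold the replicate difference. Eef1a1, which carries aminoacyl-tRNA, had 12224 and 20618 in WT and 13889 and 23227 in TG at 12 months, so that the replicates were further apart than the genotypes, and differed by 0.18 ± 0.42 (SE, n = 2), with 0.184 and 0.172 within the replicates and an SE of 0.109 with the replicate block. Eef2, the translocase, had 6711 and 9382 in WT and 7117 and 11442 in TG, a difference of 0.185 ± 0.316, with 0.085 and 0.286 within the replicates and an SE of 0.125 with the block. With the block the limma adjusted p was 0.405 for Eef1a1 and 0.452 for Eef2. The exchange-factor subunits of eEF1, Eef1b2 and Eef1d, were 0.38 ± 0.21 and 0.29 ± 0.17 higher without overlap. Eefsec, which inserts selenocysteine, differed by 0.080 ± 0.24.

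Of the 4 enzymes tested that modify the elongation factors, 1 was higher and 3 were lower at 12 months. Eef1aknmt, a methyltransferase of eEF1A, had 43.3 and 39.3 in WT and 49.0 and 57.2 in TG, close to the dimmest signal kept (45.3). Eef2k, the kinase that stops eEF2, had 236 and 157 in WT and 180 and 183 in TG, and went opposite ways in the replicates (-0.365 and 0.21). Eef1akmt1 and Eef1akmt2 differed by -0.082 ± 0.25 and -0.059 ± 0.22 (SE, n = 2).

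At 2 months, before tumours, the members were spread around 0. The median log2 difference was 0.017 against 0.009 over all genes, with 31 members higher and 24 lower and a range of -0.31 to 0.38. No member (0 of 55) had a limma adjusted p under 0.05, as did 0% of all genes, and 0 had an unadjusted limma p under 0.05, as did 0.393% of all genes. With the replicate block 1 member passed it, against 1.69% of all genes. Both TG arrays were above both WT arrays for 6 members (10.1% of all genes) and below for 3 (7.83% of all genes). Without the WT replicate 1 array, which carried pancreatic genes, the median was -0.019.

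The highest values at 2 months belonged to 2 subunits of eIF2B, the exchange factor of eIF2. Eif2b3 had 81.8 and 132 in WT and 122 and 160 in TG, which overlapped, a difference of 0.38 ± 0.27 (SE, n = 2), and Eif2b1 had 154 and 192 against 205 and 200, 0.22 ± 0.24. Relative to their errors (the moderated t of limma), Eefsec, Eif5, Eef1a2 and Eif4g3 came next, with 0.21, 0.18, 0.20 and 0.13. In the other direction the largest moderated t belonged to Eif4e3 with -0.22 ± 0.21, Eif2ak4 with -0.31 ± 0.33, and Eif4a2, Eif3c, Eif2d and Eif2a with -0.15, -0.096, -0.090 and -0.13.

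**Figure D4:**
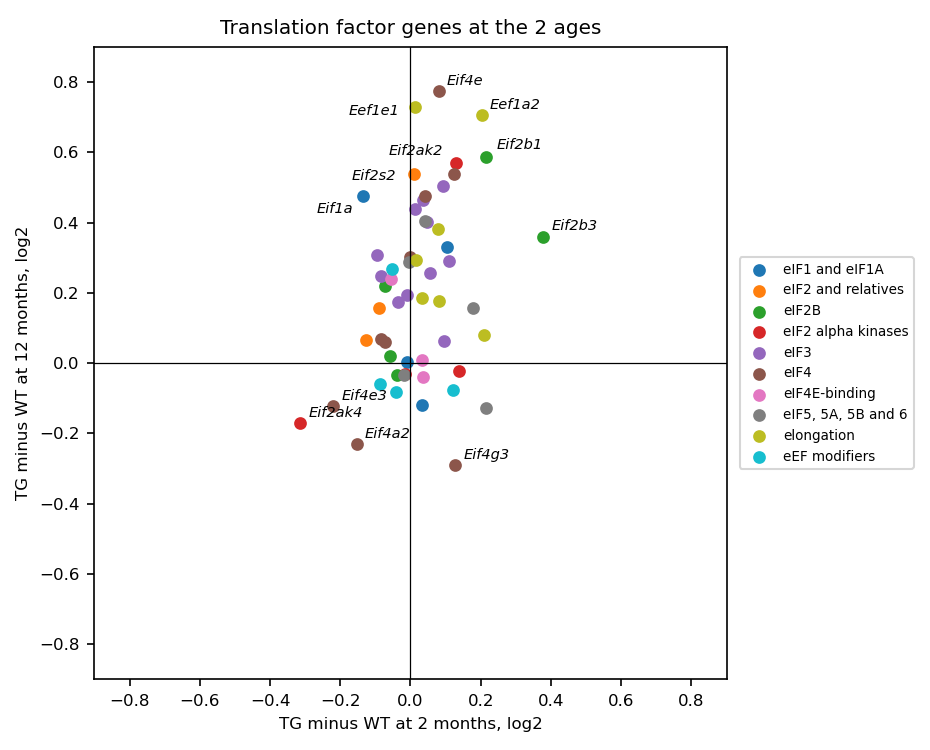
TG minus WT log2 difference at 12 months (y axis) against that at 2 months (x axis) for the 55 genes, coloured by role. The points lie between -0.31 and 0.38 on the x axis and between -0.29 and 0.78 on the y axis, and 41 of them are above 0 at 12 months.

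The difference between the effects at the 2 ages was tested as an interaction. Its median over the members was 0.20, against -0.046 over all genes, and 40 members were above 0 and 15 below. With limma 0 members had an adjusted p under 0.05 (0% of all genes), and the smallest was 1. At an unadjusted limma p under 0.05 there were 2 members, Eif4e and Eef1e1, against 1.90% of all genes, and with the replicate block 10, against 8.14%. By moderated t the first were Eif4e with 0.70 ± 0.26, Eef1e1 with 0.72 ± 0.28 and Eif2s2 with 0.53 ± 0.25 (SE, n = 2), while Eif1a had 0.61 with a larger error. At the other end by moderated t were Eif4g3 with -0.42 ± 0.27, Eif5a2 with -0.34 ± 0.57 and Eef2k with -0.20 ± 0.31. The median was 0.12 after quantile normalization and 0.13 without the 12-month WT replicate 1 mouse.

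Age was compared within each genotype, using the same 12-month arrays as the comparison of genotypes, so these values share arrays with those above. In WT mice 44 of the 55 members were lower at 12 than at 2 months and 11 higher, with a median of -0.086 against 0.006 over all genes. All 11 eIF3 subunits were lower, with a median of -0.14, but 5 of 11 without the 12-month WT replicate 1 mouse and 6 of 11 without the 2-month WT replicate 2 mouse. The 12-month arrays were below the 2-month arrays for 12 members (10.9% of all genes) and above for 3 (12.7%). In limma 0 members had an adjusted p under 0.05 (0% of all genes), 0 an unadjusted p under 0.05 (1.53% of all genes) and 2 with the replicate block (5.17%). Without the 12-month WT replicate 1 mouse the median was -0.047. The largest moderated t among the lower members belonged to Eif2ak2, Eef1a2 and Eef1e1, with -0.49 ± 0.22, -0.445 ± 0.26 and -0.405 ± 0.20 (SE, n = 2). Among the higher members it belonged to Eif5b, Eif2b3 and Eif4g3, with 0.24 ± 0.20, 0.22 ± 0.27 and 0.19 ± 0.19, though Eif5a2 had the highest value, 0.297, at signals of 51.0 to 81.6.

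In TG mice 39 members were higher at 12 than at 2 months and 16 lower, with a median of 0.11 against -0.039 over all genes. The 12-month arrays were above the 2-month arrays for 16 members (10.3% of all genes) and below for 5 (17.4%). Among eIF3 subunits 10 of 11 were higher, with a median of 0.15. In limma 0 members had an adjusted p under 0.05, where 0.00894% of all genes, a single gene, did. At an unadjusted p under 0.05 there were 2 members (4.72% of all genes), and 10 with the replicate block (13.4%). The median depended on the TG replicate 2 mouse of 12 months, without which it was 0.050 and 6 of 11 eIF3 subunits were higher. By moderated t the first of the higher members were Eif4e, Eif2s2 and Eif6, with 0.58 ± 0.18, 0.48 ± 0.17 and 0.32 ± 0.17 (SE, n = 2), and of the lower members Eif1b, Eef1akmt1 and Eif4g3, with -0.34 ± 0.21, -0.30 ± 0.25 and -0.23 ± 0.19.

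Members differed with the replicate number, as genes at large did. In all 4 groups the replicate 2 mouse was higher for 17 of the 55 members and lower for 17, against 25.9% and 21.4% of all genes, so this was not particular to the members. The deviations of the groups' replicates correlated across the 55 members with r of 0.672 to 0.814 over the 6 pairs of groups, as a description, since the members share arrays. Across all genes tested r was 0.464 to 0.654. Eif4a1 and Eef1a1 were examples, with replicate 1 higher for the former and replicate 2 higher for the latter in every group. What the number stands for is not given in the sources used here.

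How far a value rests on its probe set could be seen where a gene had several. The members had 151 probe sets, 121 of them above the filter. Among 32 members with more than 1 above the filter, all agreed in sign at 12 months for 21 and differed for 11. For 21 members the probe set used is of a type that can bind related transcripts (s_at, x_at or a_at). Eif1, Eif2s1, Eif4g1 and Eef1g had no probe set of their symbol alone and were not analysed as members.

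Other genes of the pathway were set beside the factors, from a list of 50 that covers mTOR signalling, poly(A)-binding proteins, termination and recycling, of which 48 were tested. At 12 months 30 were higher in TG and 18 lower, with a median of 0.078 against -0.034 over all genes. Both TG arrays were above both WT arrays for 10 of the 48 and below for 3, where 14.3% and 19.9% of all genes were. At 2 months 27 were higher and 21 lower, with a median of 0.012. In limma 0 of 48 had an adjusted p under 0.05 at either age. The largest moderated t among those higher belonged to Gspt1 and Etf1, the release factors eRF3 and eRF1, with 0.48 ± 0.19 and 0.34 ± 0.16 (SE, n = 2), and Denr, which recycles the small subunit, with 0.325 ± 0.165. Gspt1 had 445 and 413 in WT and 706 and 514 in TG. Among those lower it belonged to Gcn1, the activator of GCN2, with -0.38 ± 0.19, Dph5, of the diphthamide pathway of eEF2, with -0.19 ± 0.20, and the mTOR inhibitor Tsc1 with -0.18 ± 0.19.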

How the data were processed

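RNA from splenocytes of 8 mice, 1 array each, was hybridised to Affymetrix Mouse 430 2.0 arrays. The authors deposited linear intensities, 1 per probe set and array, made with GCOS 1.4 and MAS5, per the submitters' processing notes. Control probe sets were left out. Values were taken as log2(signal + 16), and probe sets with a mean under the median of all were dropped, which left 22519 of 45101 (dimmest mean signal 45.3). Of all probe sets 34945 had 1 symbol, 932 several and 9160 none in the platform annotation, with symbols updated through gene identifiers. The brightest probe set stood for a gene, which gave 11189 genes.

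The 8 arrays entered 1 limma model (version 3.58.1, R 4.3.3) with 4 group means (lmFit, eBayes with an intensity trend, 4 residual degrees of freedom, 2-sided, Benjamini-Hochberg over all genes, threshold 0.05). The fit was also run on simulated data with changes larger than any member difference and without a replicate effect. That run does not cover differences of the size seen here. Labels name the mice biological replicates. Same-numbered replicates deviated together in all 6 pairs of groups (r across genes 0.464 to 0.654), so the number was also fitted as a block; the labels do not say what it marks. Precision is limited by having 2 arrays per group. Alternatives changed the pseudocount, filter, normalization, probe set rule and trend, and left out each mouse.

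Genes were named by role and by the largest moderated t in each direction (6 for TG against WT, 3 for other comparisons). The members, lists and naming rule were chosen with earlier results of these data known. Marker lists were those of B cells, T cells, plasma cells, macrophages, neutrophils, erythroid cells, exocrine pancreas, dividing cells, interferon response, and muscle and neuron.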

Additional observations from a re-analysis of the deposited data

Results flagged for a closer look

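For 3 members the TG arrays lay on opposite sides of the WT arrays at the 2 ages. The share of all genes that did so was not counted. At 2 months both TG arrays lay above both WT arrays for 10.1% of all genes and below for 7.83%. At 12 months these shares were 14.3% and 19.9%. Eif3c, a core subunit of eIF3, had 1564 and 1729 in WT and 1540 and 1536 in TG at 2 months, where TG was lower, and 1370 and 1418 in WT and 1902 and 1571 in TG at 12 months, where TG was higher; the difference of the effects was 0.403 ± 0.245 (SE, n = 2; limma adjusted p of 1). Eif4g3 was higher in TG at 2 months and lower at 12 months, with a difference of -0.416 ± 0.265 (limma adjusted p of 1). Eif4h, a cofactor of eIF4A, had 3297 and 3344 in WT and 3056 and 3260 in TG at 2 months, where TG was lower, and 3186 and 3269 in WT and 3328 and 3399 in TG at 12 months, where TG was higher, with a difference of 0.132 (limma adjusted p of 1). None of the 3 differences passed the test. Other probe sets above the filter did not all repeat the reversals. Those of Eif3c gave 0.158 to 0.530 at 12 months with overlapping groups, and those of Eif4g3 gave -0.152 and -0.028, also with overlap. Those of Eif4h ranged from -0.070 to 0.274 at 2 months.

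Probe sets annotated to several symbols stood for no gene, and among those above the filter 3 that name a translation factor were higher on both TG arrays at 12 months. Of all genes tested, 14.3% were higher and 19.9% lower in TG without overlap. The probe set of Ankhd1 and Eif4ebp3 was lower on both TG arrays (-0.224), and that of Gm5576 and Eif4a3 overlapped (0.192). The probe set of Gm29753 and Eef1g, the gamma subunit of eEF1, had 4089 and 5007 in WT and 5991 and 7007 in TG, a difference of 0.516. Of the 3 probe sets of Eif3j2 and Eif3j1, near-identical genes of an eIF3 subunit, 2 differed by 0.377 and 0.446, and the dimmest differed by 0.158 with overlapping groups. Which of the named genes gave the signal cannot be told apart, and these values were not tested.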

How the results depend on the processing

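In each of the 5 comparisons 0 members passed the limma threshold under all 18 settings run. At 12 months the count of members higher in TG was 38 to 43 over these settings, and the count without overlap 22 to 25 over 8 settings; both counts were given these alternatives after the data were seen. With the replicate block the median was 0.194 and the smallest adjusted p 0.0666, and the block ended or made no call among the members; over all genes it gave 5 calls at 12 months where the fit without it gave 0, and leaving out the TG replicate 2 mouse gave 7. The median of the members at 12 months was 0.134 after quantile normalization and 0.155 after cyclic loess, and 0.128 to 0.248 with each mouse left out. For the difference of the effects it was 0.182 with a pseudocount of 64, 0.124 after quantile normalization, 0.163 after cyclic loess and 0.132 to 0.238 with a mouse left out. At 2 months it was 0.032 without the filter, 0.024 after quantile normalization, 0.013 with probe sets averaged per gene and -0.019 to 0.041 with a mouse left out. For age in TG mice it was 0.105 with a pseudocount of 64, 0.073 after quantile normalization, 0.095 after cyclic loess, 0.107 with probe sets averaged and 0.050 to 0.127 with a mouse left out, and for age in WT mice -0.110 to -0.047 with a mouse left out. The cause of these shifts was not tested. Among the 55 members tested, 885 of 933 values under the alternatives at 12 months had the reported sign and 48 did not, and at 2 months 849 and 84. The replicate block, the fit without the trend, and leaving out a mouse of the other age cannot change these values. Part of the agreement was thus fixed in advance. The sign was kept under all alternatives for 32 of the 55 members at 12 months and for 10 at 2 months.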

Other observations

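A probe set shared by Eif4a3 and Gm5576 had 699 and 1022 in WT and 842 and 1113 in TG at 12 months, a difference of 0.192 with overlapping groups, while the probe set of Eif4a3 alone was below the filter. The probe set shared by Ankhd1 and Eif4ebp3, a further eIF4E-binding protein, had 595 and 561 in WT and 473 and 512 in TG, lower on both TG arrays by a log2 difference of -0.224.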
